A study of Homo sapiens with 8 samples.

Results

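The hemidesmosome is the junction that fastens a basal epithelial cell to the basement membrane beneath it. Its outer side binds laminin-332, a secreted basement membrane protein with the chains LAMA3 and LAMB3 among its parts, and its inner side binds keratin filaments. COL17A1 (collagen XVII, a transmembrane collagen) and the integrin pair ITGA6 and ITGB4 cross the membrane, the tetraspanin CD151 sits beside the integrin, and the plakins PLEC (plectin) and DST (dystonin) link the receptors to keratin. In the breast these junctions belong to the basal and myoepithelial layer that separates the duct from the stroma.

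RNA levels of 8 of these genes (COL17A1, ITGA6, ITGB4, CD151, PLEC, DST, LAMA3 and LAMB3) were described among 13771 genes measured by RNA-seq. The genes were taken by name. COL17A1 was chosen on a measured value, its rise in DCIS.COM cells with HOTAIR, and the others were added as known partners. All 8 were found in the table.

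The study asked what the long noncoding RNA HOTAIR does in non-invasive breast cells. MCF10A is a non-tumorigenic human breast epithelial line, whereas DCIS.COM cells descend from MCF10A and model ductal carcinoma in situ. Each was stably transduced with pCDH-HOTAIR or with pCDH-empty and selected in puromycin, and every one of the 4 groups had 2 libraries. The MCF10A medium contained epidermal growth factor, hydrocortisone, insulin and cholera toxin besides horse serum, whereas the DCIS.COM medium was supplemented with horse serum, so that line and medium cannot be told apart. No source used here says that the 2 libraries of a group came from separate cultures, and the p-values then measure the spread between libraries.

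Libraries held 19306864 to 34884841 recovered reads. HOTAIR itself was at 0.60 and 0.66 log2 CPM, a read count scaled to library size, in MCF10A with the empty vector and at 7.90 and 7.92 with HOTAIR. In DCIS.COM it was at 2.01 and 2.40 with the empty vector and at 7.66 and 7.57 with HOTAIR. The library DCIS.COM pCDH-empty 1 stood apart in the share of its reads on the signal recognition particle RNAs RN7SL1 and RN7SL2, 18.9% against 11.1% to 15.0% in the other libraries.

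COL17A1, LAMA3 and LAMB3 were much lower in DCIS.COM than in MCF10A, and ITGA6 was not. The 250 bases before their transcription starts are shown for that reason, 5′ to 3′ on the gene's strand, from RefSeq on GRCh38.p14. Capitals mark matches on either strand to TGANTCA (the AP-1 site) or TATAAA (the TATA box). The windows are COL17A1 at chr10:104085881-104086130, minus strand, LAMA3 at chr18:23872770-23873019, plus strand, LAMB3 at chr1:209652426-209652675, minus strand, and ITGA6 at chr2:172427086-172427335, plus strand.
COL17A1: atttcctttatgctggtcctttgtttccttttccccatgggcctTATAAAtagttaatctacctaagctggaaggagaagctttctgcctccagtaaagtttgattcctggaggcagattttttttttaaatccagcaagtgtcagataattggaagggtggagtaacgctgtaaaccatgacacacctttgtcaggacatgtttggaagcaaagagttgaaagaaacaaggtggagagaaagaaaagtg
LAMA3: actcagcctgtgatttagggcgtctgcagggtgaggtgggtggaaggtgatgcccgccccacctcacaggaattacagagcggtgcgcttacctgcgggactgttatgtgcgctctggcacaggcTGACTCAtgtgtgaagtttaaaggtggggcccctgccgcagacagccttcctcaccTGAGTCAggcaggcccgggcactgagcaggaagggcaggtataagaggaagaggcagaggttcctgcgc
LAMB3: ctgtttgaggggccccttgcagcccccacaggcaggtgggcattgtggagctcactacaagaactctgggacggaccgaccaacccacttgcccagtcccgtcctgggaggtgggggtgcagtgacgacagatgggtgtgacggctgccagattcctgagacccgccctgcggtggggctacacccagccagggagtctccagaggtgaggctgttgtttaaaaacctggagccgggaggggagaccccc
ITGA6: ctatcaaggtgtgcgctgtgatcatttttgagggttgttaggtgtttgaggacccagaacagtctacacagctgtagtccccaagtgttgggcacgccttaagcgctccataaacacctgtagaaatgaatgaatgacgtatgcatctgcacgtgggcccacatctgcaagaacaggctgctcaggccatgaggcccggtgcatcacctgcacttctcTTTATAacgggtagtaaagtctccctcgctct

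The LAMA3 window held 2 AP-1 matches, with first bases 125 and 69 bases before the start. It lies before the internal start of the gene, 183567 bases into the annotated LAMA3 locus. The LAMB3 window printed above held none, although another RefSeq start 1051 bases further into the gene had 1 match at 67 bases. COL17A1 and ITGA6 had no AP-1 match and 1 TATA match each, at 206 and 32 bases before the start. Of 35116 RefSeq promoters of this length, 6.57% held an AP-1 match and 10.7% a TATA match. The GC box GGGCGG, present in 42.6% of promoters, matched once in the printed LAMA3 window and once in that of LAMB3, and not in the COL17A1 or ITGA6 windows printed. The E-box CANNTG was in 61.8% of promoters and in all 4 windows. Its form CACGTG, in 6.35% of promoters, was in the ITGA6 window alone, and the shorter ACGTG within it, in 18.5%, was likewise. The TEAD motif GGAATG, in 11.9%, was in none of the 4. The window of another RefSeq start of ITGA6, 232 bases into the gene, held 3 GC box matches and 1 ACGTG match. That window held no TATA or CACGTG match. ITGB4, CD151 and PLEC were not in the promoter table, and the 3 windows of DST are not printed.

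COL17A1, on chromosome 10 (GRCh37, 105791044 to 105845638, minus strand, 56 exons in its canonical transcript), had a wide gap between the lines. In MCF10A it was at 10.90 and 10.98 log2 CPM with the empty vector and at 10.95 and 10.99 with HOTAIR. In DCIS.COM it was at 6.05 and 5.98 with the empty vector and at 6.98 and 6.94 with HOTAIR. All 4 MCF10A libraries lay within 0.09 of each other, and both HOTAIR libraries of DCIS.COM lay above both empty vector libraries.

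In recovered reads, COL17A1 counts in MCF10A were 59778 and 53786 with the empty vector and 38365 and 40655 with HOTAIR. In DCIS.COM they were 1995 and 1695 with the empty vector and 4497 and 4128 with HOTAIR, so the low level was well sampled.

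The rise of COL17A1 with HOTAIR in DCIS.COM, by which it was chosen, was 0.94 on the log2 scale (SE 0.06, n = 2), or 1.92-fold. In MCF10A the same contrast was 0.03 (SE 0.06, 95% interval from -0.12 to 0.17, adjusted p = 0.986). The difference between these changes was not tested, because one of them chose the gene. COL17A1 was 30.4-fold lower in DCIS.COM than in MCF10A with the empty vector and 16.1-fold lower with HOTAIR, given without a test since the DCIS.COM libraries had chosen it. The level in DCIS.COM with HOTAIR thus stayed below every MCF10A library by a wide margin.

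**Figure D1:**
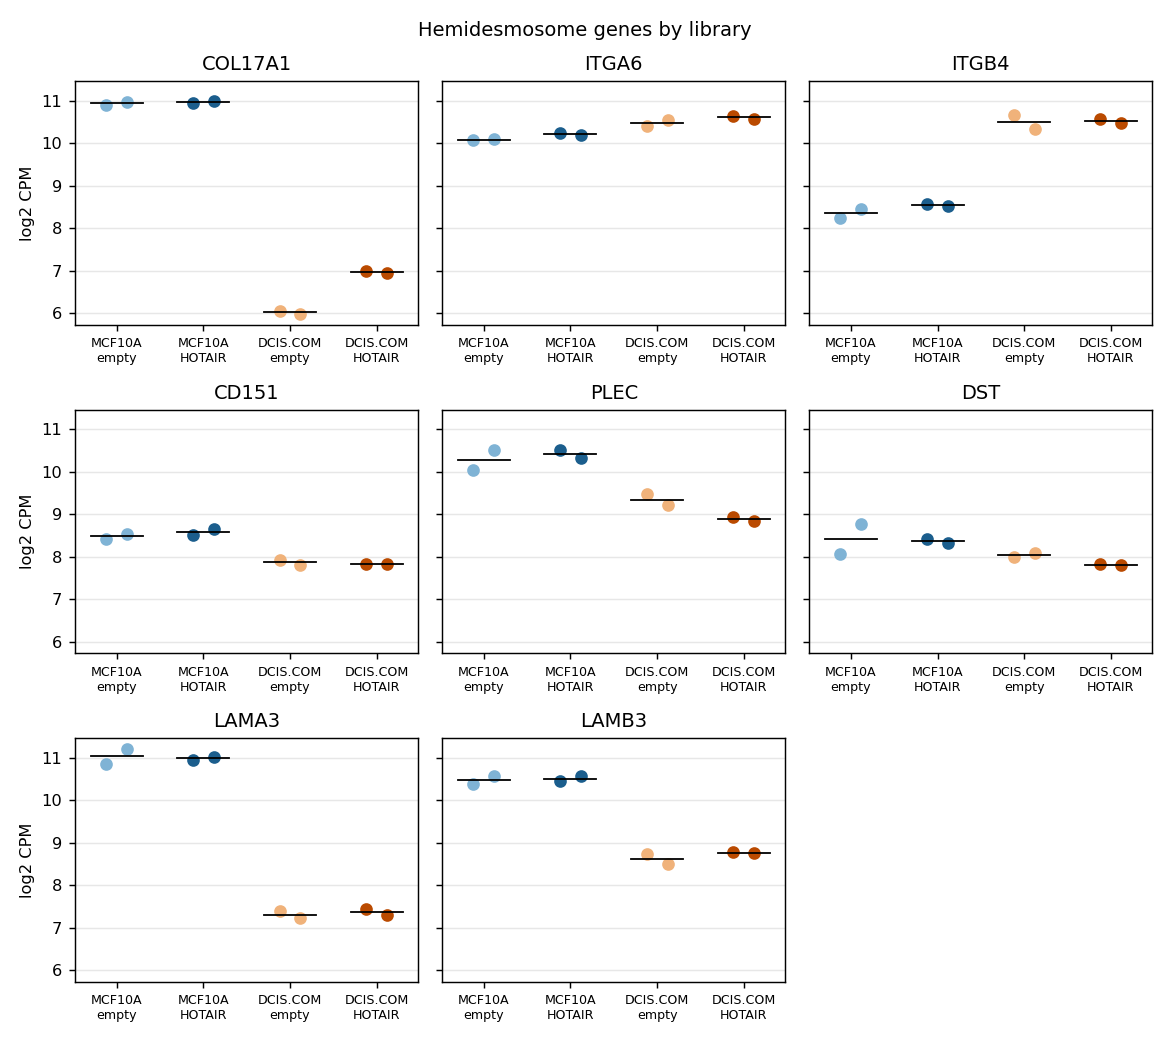
Log2 CPM (vertical axis) of the 8 genes in each library, by cell line and vector, with a line at each group mean (n = 2). COL17A1 lies between 5.98 and 6.98 in DCIS.COM and between 10.90 and 10.99 in MCF10A, whereas ITGB4 is the gene that is clearly higher in DCIS.COM.

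The 2 integrin chains did not follow COL17A1. ITGA6, the alpha chain that pairs with ITGB4 in hemidesmosomes and with ITGB1 elsewhere, was at 10.07 and 10.10 log2 CPM in MCF10A with the empty vector and at 10.24 and 10.21 with HOTAIR. In DCIS.COM it was at 10.42 and 10.56, and at 10.64 and 10.58. Every DCIS.COM library was above every MCF10A library, but the distance was small.

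ITGA6 was 0.40 higher on the log2 scale in DCIS.COM with the empty vector (SE 0.08, adjusted p = 0.00176) and 0.38 higher with HOTAIR (adjusted p = 0.00230). Both passed on the p-value and fell short of the 1.5-fold minimum, so they were not called. A call required an adjusted p under 0.05 and a change of at least 1.5-fold.

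ITGB4, the chain with the long cytoplasmic tail that binds plectin, was at 8.25 and 8.45 log2 CPM in MCF10A with the empty vector and at 8.57 and 8.53 with HOTAIR. The DCIS.COM libraries held it at 10.68 and 10.33, and at 10.56 and 10.48. The lines did not overlap. ITGB4 rose 4.45-fold from MCF10A to DCIS.COM with the empty vector (log2 2.15, SE 0.12, adjusted p = 1.41e-06) and 3.92-fold with HOTAIR (adjusted p = 2.37e-06). It was the only one of the 8 genes called higher in DCIS.COM.

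With HOTAIR the integrins moved little. In MCF10A both HOTAIR libraries lay above both empty vector libraries for ITGA6 (log2 0.14, SE 0.08, adjusted p = 0.799) and ITGB4 (log2 0.20, SE 0.12, adjusted p = 0.822), and neither passed the test. In DCIS.COM the changes were 0.12 for ITGA6 and 0.02 for ITGB4. Without DCIS.COM pCDH-empty 1 they were 0.05 and 0.19, and without DCIS.COM pCDH-empty 2 they were 0.19 and -0.15. ITGB4 was also below 0 without DCIS.COM pCDH-HOTAIR 1 (-0.02). ITGB4 shares its locus on chromosome 17 with GALK1 on the opposite strand. The use of strand in the counting is not given in the sources used here, so reads from the overlap cannot be assigned with certainty.

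CD151, the tetraspanin that binds laminin-binding integrins, was slightly lower in DCIS.COM. It was at 8.42 and 8.54 log2 CPM in MCF10A with the empty vector, and at 8.51 and 8.66 with HOTAIR. Its DCIS.COM values were 7.92 and 7.81 with the empty vector and 7.82 in both HOTAIR libraries. All 4 DCIS.COM libraries lay below all 4 MCF10A libraries. It fell 1.53-fold with the empty vector (adjusted p = 1.70e-04) and 1.70-fold with HOTAIR (adjusted p = 4.73e-05). The first lies close to the 1.5-fold minimum, and the call was lost with median centring (log2 -0.57) and without the second empty vector library of either line (log2 -0.56 in both cases). CD151 overlaps POLR2L on the opposite strand, with the same limit as for ITGB4.

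The 2 plakins differed from each other. PLEC, which holds keratin to ITGB4, was at 10.05 and 10.51 log2 CPM in MCF10A with the empty vector and at 10.51 and 10.32 with HOTAIR. DCIS.COM libraries were at 9.47 and 9.22, and at 8.94 and 8.84. All DCIS.COM libraries were below all MCF10A libraries, and within DCIS.COM both HOTAIR libraries were the lowest.

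PLEC fell 1.91-fold from MCF10A to DCIS.COM with the empty vector (log2 -0.93, SE 0.15, adjusted p = 8.50e-04) and 2.88-fold with HOTAIR (log2 -1.53, SE 0.15, adjusted p = 4.98e-05). Its change with HOTAIR was -0.45 in DCIS.COM and 0.14 in MCF10A (adjusted p = 0.944). Without DCIS.COM pCDH-empty 1 the DCIS.COM value was -0.33.

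DST, whose epithelial isoform is the plakin that binds COL17A1 and keratin, gave no call. It was at 8.05 and 8.77 log2 CPM in MCF10A with the empty vector and at 8.42 and 8.32 with HOTAIR. The DCIS.COM levels were 7.99 and 8.09 with the empty vector and 7.82 and 7.80 with HOTAIR. The MCF10A empty vector libraries were 0.71 apart, wider than the distance between the lines, and the line difference depended on them. With the empty vector it was -0.37 (SE 0.19, adjusted p = 0.120), and -0.72, which would be a call, without MCF10A pCDH-empty 1, or -0.01 without MCF10A pCDH-empty 2. With HOTAIR it was -0.56 (adjusted p = 0.0320), short of the fold minimum. Gene-level values cannot separate the epithelial isoform of DST from its neuronal and muscle isoforms.

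**Figure D2:**
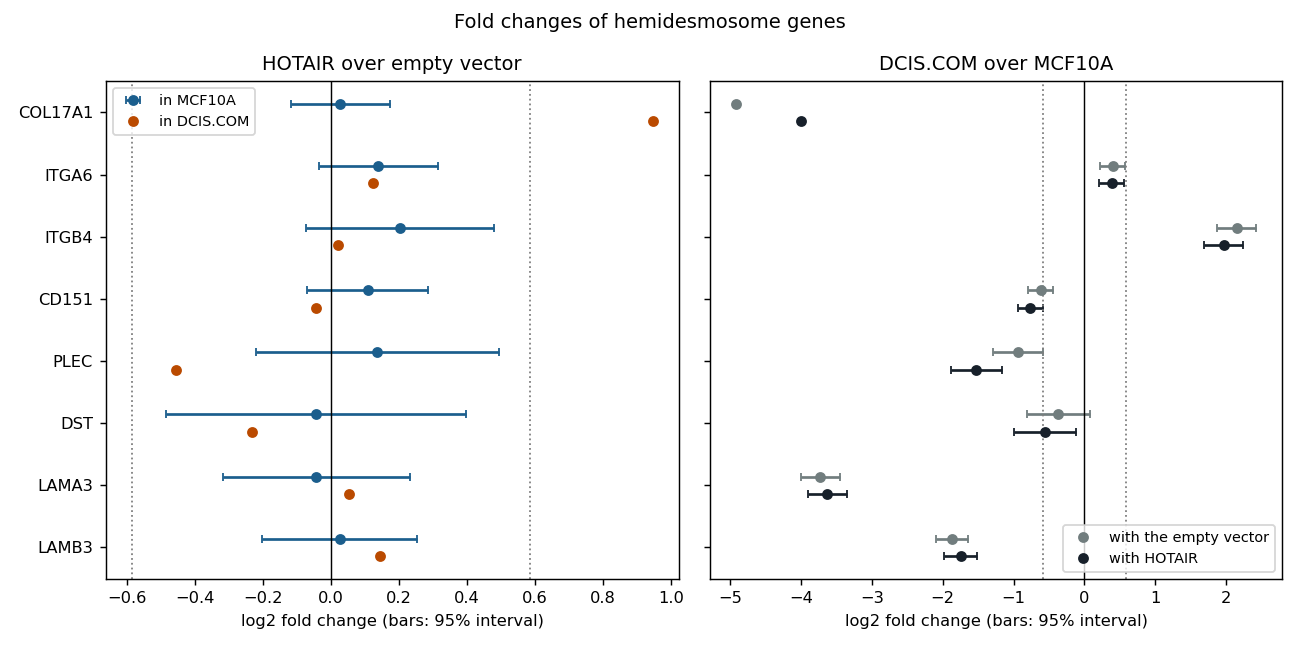
Log2 fold change (horizontal axis) of each gene for HOTAIR over the empty vector in each line (left) and for DCIS.COM over MCF10A with each vector (right), with unadjusted 95% intervals from limma where a test applies and no interval for values that share the choice of COL17A1. Dotted lines mark 1.5-fold. COL17A1 in DCIS.COM stands alone at 0.94 on the left, and on the right the laminin chains and COL17A1 lie far below 0 while ITGB4 lies near 2.

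LAMA3 and LAMB3, chains of the ligand of the integrin, were both lower in DCIS.COM. LAMA3, the alpha chain that carries the integrin-binding end, was at 10.86 and 11.21 log2 CPM in MCF10A with the empty vector and at 10.96 and 11.03 with HOTAIR. Levels in DCIS.COM were 7.39 and 7.22 with the empty vector and 7.43 and 7.29 with HOTAIR. It fell 13.3-fold with the empty vector (log2 -3.73, SE 0.12, adjusted p = 8.05e-08) and 12.4-fold with HOTAIR (adjusted p = 9.20e-08). No library of one line came near the other line.

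LAMB3, the beta chain, fell less. It was at 10.39 and 10.58 log2 CPM in MCF10A with the empty vector and at 10.46 and 10.57 with HOTAIR. The DCIS.COM libraries held it at 8.73 and 8.50, and at 8.78 and 8.75. The fall was 3.65-fold with the empty vector (log2 -1.87, SE 0.10, adjusted p = 1.07e-06) and 3.36-fold with HOTAIR (adjusted p = 1.59e-06).

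The fall of LAMA3 was thus larger than that of LAMB3 by more than the standard errors of 0.12 and 0.10, a difference that was not tested as such.

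HOTAIR changed neither laminin chain detectably in MCF10A, where the log2 changes were -0.04 for LAMA3 (adjusted p = 0.993) and 0.03 for LAMB3 (adjusted p = 0.997). In DCIS.COM they were 0.05 and 0.14. There they were 0.13 and 0.26 without DCIS.COM pCDH-empty 1 and -0.03 and 0.03 without DCIS.COM pCDH-empty 2, and LAMA3 was -0.02 without DCIS.COM pCDH-HOTAIR 1. LAMA3 has a short and a long isoform with separate starts, which these gene-level values combine.

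Counted together, 0 of the 8 genes were called for HOTAIR in MCF10A, where 0.0218% of all genes were called by limma. None of the 8 had an unadjusted p under 0.05 there, against 1003 of all 13771 genes. limma-voom on the recovered reads also called 0 of the 8. In DCIS.COM 1 of the 8, COL17A1, was called beside 0.0871% of all genes, a count that the choice of the gene fixed. In MCF10A 2 of the 8 had both HOTAIR libraries above both empty vector libraries (22.5% of all genes) and 0 had both below (24.8% of all genes). In DCIS.COM 3 of the 8 (COL17A1, ITGA6 and LAMB3) were above (24.7% of all genes) and 2 (PLEC and DST) were below (24.5% of all genes). These counts are close to the background, and COL17A1 is among those above through the rise that chose it. The median change of the 8 was 0.07 in MCF10A and 0.04 in DCIS.COM, and that of all genes was -0.01 and 0.01.

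Between the lines, 5 of the 8 were called lower in DCIS.COM with the empty vector (COL17A1, PLEC, CD151, LAMA3 and LAMB3), while 23.8% of all genes were, and 1 of the 8 was called higher, while 22.5% of all genes were. With HOTAIR the same genes gave 5 lower (21.7% of all genes) and 1 higher (22.0% of all genes). COL17A1 is among the 5 through the libraries that chose it. The median of the 8 was -0.77 with the empty vector and -1.15 with HOTAIR, and the median of all genes was 0.00 in both. In bulk RNA, fewer cells with a transcript and less of it per cell cannot be told apart.

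Markers of cell layer moved with these line differences. All 8 basal markers were measured. In DCIS.COM 7 were called lower (23.8% of all genes with the empty vector) and 1 higher (22.5% of all genes) with either vector. Their summed level was 14235 to 16174 CPM in the MCF10A libraries and 1538 to 1902 CPM in the DCIS.COM libraries. TP63, a transcription factor of basal cells, was the one higher in DCIS.COM, by 0.75 on the log2 scale with the empty vector. Of 7 luminal markers 6 were measured, and 5 were called higher in DCIS.COM with either vector, beside the same 22.5% of all genes. Their summed level was 1163 to 1216 CPM in MCF10A and 4292 to 5699 CPM in DCIS.COM. Of the markers of other cell types, 0 of 6 fibroblast, 1 of 4 endothelial (PECAM1) and 1 of 4 leukocyte (CD68) genes were in the table. The part of these markers in the results was not tested.

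Scaled to the length of the canonical transcript, which allows genes to be compared, the order of levels changed between the lines. In the 4 MCF10A libraries LAMB3 (8.39 to 8.57 log2 CPM per kb) and COL17A1 (8.42 to 8.50) were highest and overlapped. CD151 (7.79 to 8.03), LAMA3 (7.45 to 7.79) and ITGA6 (7.53 to 7.70) came next, with LAMA3 overlapping both of its neighbours. PLEC (6.16 to 6.62), ITGB4 (5.69 to 6.01) and DST (3.43 to 4.14) were separate steps below.

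In the 4 DCIS.COM libraries the integrin chains stood at the top and overlapped, ITGA6 at 7.88 to 8.10 log2 CPM per kb and ITGB4 at 7.77 to 8.12. CD151 followed at 7.19 to 7.29. LAMB3 was at 6.50 to 6.77 and PLEC at 4.95 to 5.59. COL17A1 spanned 3.50 to 4.50 because of its difference between vectors, and LAMA3 (3.81 to 4.02) lay inside that span. DST was lowest at 3.17 to 3.46. The levels of DST and LAMA3 rest on canonical lengths of 24709 and 10651 bases. Apart from the length of all exons (48142 bases for DST and 14488 for LAMA3), other lengths of these genes were not tried. Their places, and the ratios given below, may depend on the length used. The place of CD151 depended on the length used. With the length of all exons its mean level fell below that of LAMB3 in DCIS.COM (5.90 against 6.40 with the empty vector) and below those of ITGA6 and LAMA3 in MCF10A (6.52 against 7.35 and 7.18).

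Among the 12989 genes with a canonical transcript length, COL17A1 ranked between 152 and 163 in MCF10A and between 2651 and 4637 in DCIS.COM on this scale. ITGB4 moved the other way, from ranks 933 to 1196 in MCF10A to ranks 218 to 263 in DCIS.COM. ITGA6 stayed between ranks 208 and 308 over both lines. LAMA3 went from ranks 266 to 326 in MCF10A to ranks 3503 to 3922 in DCIS.COM.

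**Figure D3:**
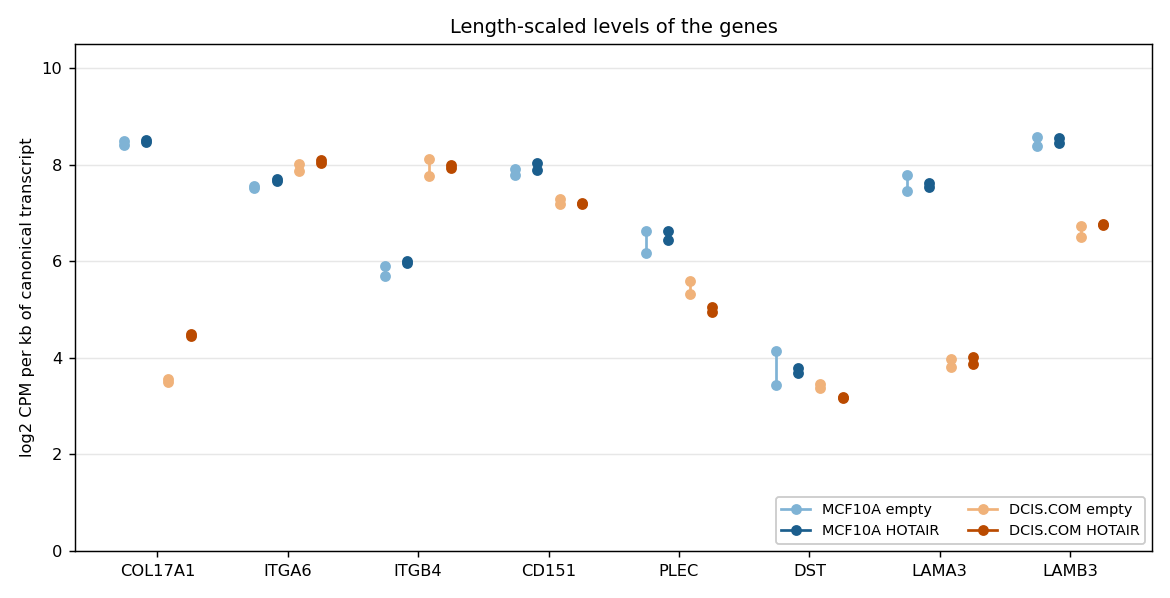
Log2 CPM per kb of canonical transcript (vertical axis) for each gene, with the 2 libraries of each group as joined points. COL17A1, LAMA3 and LAMB3 drop from MCF10A to DCIS.COM, ITGB4 climbs to the level of ITGA6, and DST is low in both lines at the length used.

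Partners that assemble together were compared as ratios of length-scaled levels within each library, as a description. ITGA6 exceeded ITGB4 by 3.18 to 3.58 times in the MCF10A libraries, and in DCIS.COM the ratio was 0.845 to 1.18, near parity. COL17A1 was 5.46 to 6.63 times ITGB4 in MCF10A. In DCIS.COM the ratio was 0.0426 to 0.0902, and its 2 highest values were those of the HOTAIR libraries. That order follows from the rise by which COL17A1 was chosen. PLEC was 1.38 to 1.65 times ITGB4 in MCF10A and 0.127 to 0.184 times in DCIS.COM.

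The laminin chains and the plakins also stood in other proportions in DCIS.COM. LAMA3 was 0.518 to 0.583 times LAMB3 in MCF10A and 0.137 to 0.155 times in DCIS.COM. COL17A1 was 1.62 to 1.96 times LAMA3 in MCF10A and 0.754 to 1.498 times in DCIS.COM, where the HOTAIR libraries held the 2 highest values. Their order here too follows from the choice of COL17A1. DST was 0.141 to 0.179 times PLEC in MCF10A and 0.215 to 0.290 times in DCIS.COM. No ratio range of these 6 pairs overlapped between the lines, and COL17A1 to LAMA3 came closest (at most 1.498 against at least 1.62). How often pairs of other genes separate the lines was not examined, so this count is only a description.

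**Figure D4:**
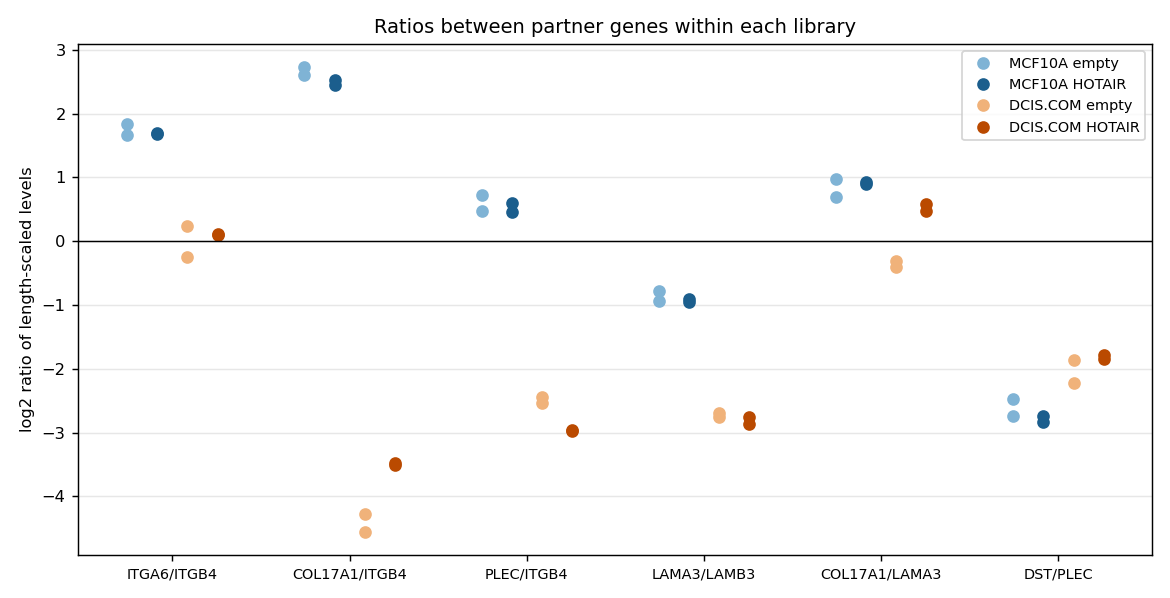
Log2 ratio of length-scaled levels (vertical axis) of 6 pairs of partner genes in each library, by cell line and vector. The line at 0 marks equal levels, which ITGA6 and ITGB4 approach in DCIS.COM, and the COL17A1 to ITGB4 ratio shows the widest gap between the lines.

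The genes whose pattern over the 8 libraries was most like that of COL17A1 were sought among 9531 other genes with a mean of at least 3 log2 CPM, by Euclidean distance of centred log2 values. The 5 nearest were COL4A6 (distance 0.52), a basement membrane collagen chain, TRIM22 (0.56), IGFBP6 (0.60), FSTL1 (0.73) and VGLL3 (0.74). LAMA3 was at rank 50, whereas ITGB4 was at rank 9379. COL4A6 was at 6.36 and 6.50 log2 CPM in MCF10A with the empty vector and at 6.48 and 6.42 with HOTAIR, and in DCIS.COM at 1.76 and 1.91, and at 2.30 and 2.32. All 5 had both HOTAIR libraries of DCIS.COM above both empty vector libraries, as likeness to COL17A1 favours. Such likeness over 2 lines is set mostly by the line difference.

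Lists of related genes around the junction were counted in the same way. Of 8 plakins and keratin linkers, 4 were called lower and 1 higher in DCIS.COM with either vector, with a median of -1.13 with the empty vector. The lower calls were KRT5, KRT14, DSP and EPPK1, and KRT5 and KRT14 had already been counted among the basal markers. Of all genes 23.8% were called lower and 22.5% higher with the empty vector, and 21.7% and 22.0% with HOTAIR, against which this and the next lists are read. KRT14 (log2 -4.66, adjusted p = 1.09e-07), a basal keratin to which plectin binds, and EPPK1 (log2 -3.18) fell the most, and EVPL (log2 0.80), a plakin of the cornified envelope, rose. EPPK1 and PLEC both carry plakin repeats, and whether any reads were shared between them was not examined.

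Of 17 measured genes of the basement membrane and other laminin receptors, 7 were called lower and 3 higher in DCIS.COM with the empty vector, and 9 lower and 2 higher with HOTAIR. The higher calls were thus no larger a share than among all genes (22.5% with the empty vector), and the lower calls a larger one (23.8% of all genes). COL4A6 (log2 -4.59, adjusted p = 1.22e-08) and the nidogen NID2 (log2 -4.47) fell the most with the empty vector. NID2 had only 9 to 17 reads in the DCIS.COM empty vector libraries, so the size of its fall is imprecise. BCAM, a laminin receptor, rose (log2 1.49, adjusted p = 7.69e-04). FREM2, a basement membrane protein of epithelia, had 0 or 1 read in each MCF10A library and 1426 to 1679 reads in each DCIS.COM library, and no fold is given against so few reads.

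Of 8 measured proteases of collagen XVII and laminin-332, 5 were called lower (23.8% of all genes with the empty vector) and 1 higher (22.5%) in DCIS.COM with either vector. PLAU (urokinase, log2 -3.80, adjusted p = 2.65e-07) and BMP1 (log2 -3.74), which trims laminin chains, fell, and PLAT (tissue plasminogen activator, log2 1.75) rose. MMP14, a membrane-bound metalloproteinase, was the only other gene of these lists called with HOTAIR in DCIS.COM. It was at 5.30 and 5.44 log2 CPM there with the empty vector and at 6.03 and 5.96 with HOTAIR, below the 7.14 to 7.38 of the MCF10A libraries. The adjusted p of MMP14 by limma was 0.0271. Its call was lost in a fit of the DCIS.COM libraries alone, which called 0 genes. The median change of the protease list with HOTAIR in DCIS.COM was 0.43, beside 0.01 for all genes, with 1 of 8 called (0.0871% of all genes). Its changes ran from 0.11 to 0.68, and the largest was not called. In the basement membrane list the changes with HOTAIR in DCIS.COM ran from -0.42 to 0.97, with none called. The largest was that of COL7A1, which had only 23 to 45 reads in the DCIS.COM empty vector libraries.

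Of 12 kinases and adaptors of integrin signalling, 3 were called lower and 4 higher with the empty vector, and 4 lower and 4 higher with HOTAIR. EGFR, lower with either vector, had already been counted among the basal markers. The lower calls with the empty vector are near the 23.8% of all genes. FYN (log2 -5.55), a kinase that acts on the ITGB4 tail, and MET (log2 -1.98), the hepatocyte growth factor receptor, fell. FYN was as low as -0.75 log2 CPM in DCIS.COM, a level at which the size of a fall is less precise. PRKCA (log2 2.09), a kinase that phosphorylates ITGB4, and MST1R (log2 0.85), a receptor related to MET, rose. Of 4 measured tetraspanins other than CD151, CD81 (log2 -0.84) was called lower with either vector and none higher. The medians of the basement membrane, protease, kinase and tetraspanin lists between the lines with the empty vector were -0.42, -1.59, -0.14 and -0.13, beside 0.00 for all genes.

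**Figure D5:**
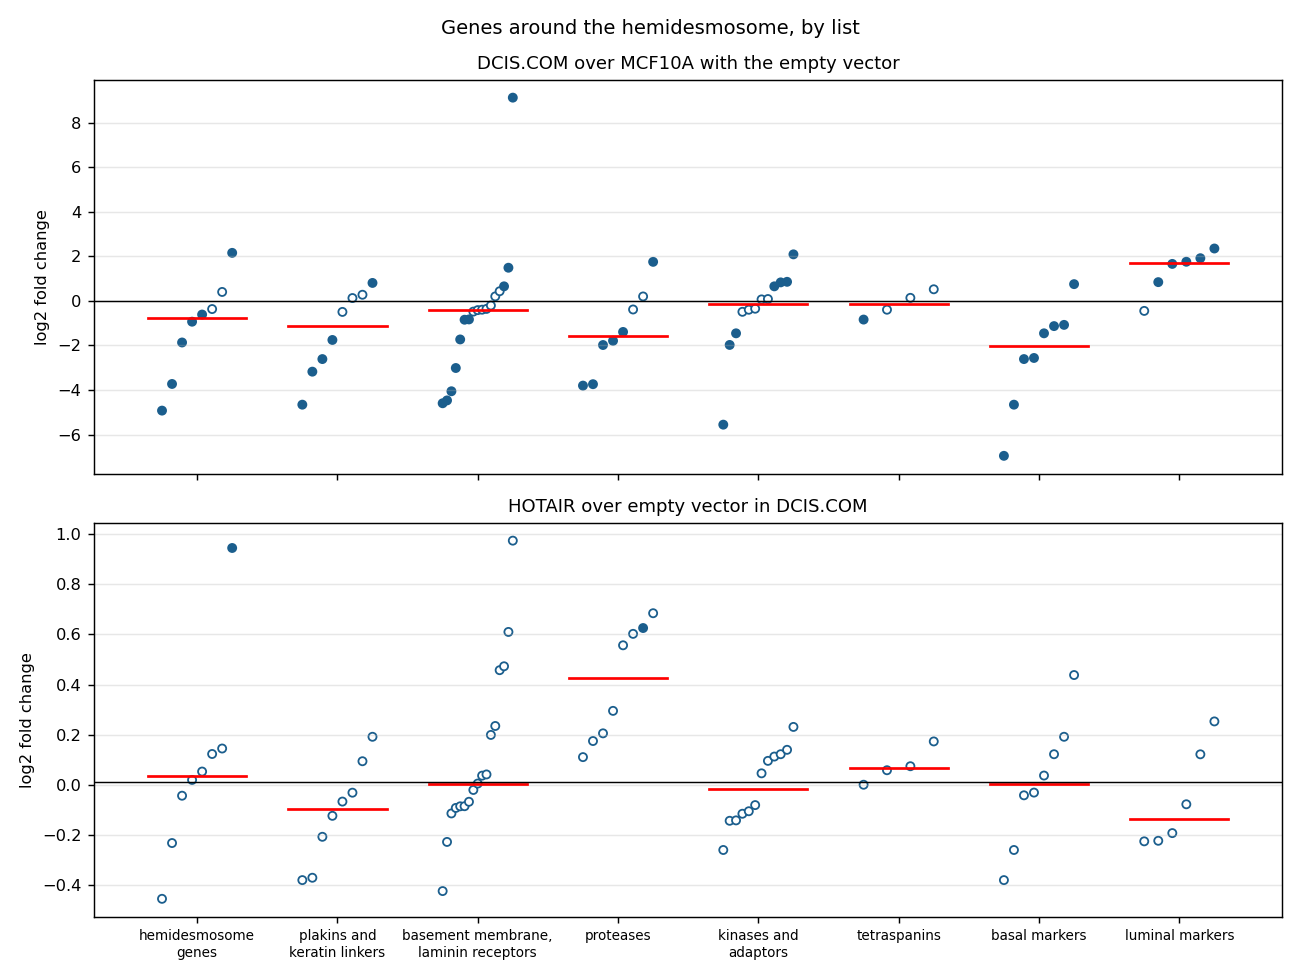
Log2 fold change (vertical axis) of the genes of each list between the lines with the empty vector (top) and with HOTAIR in DCIS.COM (bottom). Each point is a gene, filled if called, red lines are list medians and the black line is the median of all genes. The top point, FREM2, is a fitted value that rests on 1 read in each MCF10A empty vector library and is no measure of its fold. In the lower plot the filled points are COL17A1 at 0.94 and MMP14 at 0.63.

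Leaving out DCIS.COM pCDH-empty 1 moved the small HOTAIR changes of the integrin and laminin genes in DCIS.COM, as given above, and PLEC was then -0.33. COL17A1 changed by 0.98 with HOTAIR and by -4.96 between the lines with the empty vector. ITGB4 was then 1.98, PLEC -1.06, CD151 -0.66, LAMA3 -3.81 and LAMB3 -1.98 between the lines, and 6 of the 8 were still called.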

How the data were processed

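RNA was sequenced from 8 libraries (ScriptSeq v2, 76 nt paired ends), and per the labels and the study's methods the authors aligned reads to hg19 with Rsubread, made gene counts with featureCounts and scaled them in edgeR. The deposited values are log2 CPM of 13771 genes. Here whole reads were recovered from them (100% of values within 0.05 of a whole number). Differences were tested on the deposited log2 values with limma 3.58.1 in R 4.3.3 (4 group means, eBayes with a trend), with Benjamini-Hochberg adjustment over all genes, after a check on simulated data. Lengths and positions came from GENCODE release 44 on GRCh37, and the canonical transcript length was chosen after seeing the data, as were the motifs and the promoters shown. Totals per library limit the precision of low genes. One planned gene is not reported here. The genes, lists and tests were chosen with earlier results of these data known. Genes of each list were named if called with HOTAIR or among the 2 largest calls in each direction with the empty vector that were called alike with HOTAIR. The alternatives were other scalings, pseudocounts, filters, fits, thresholds, limma-voom, thinning, corrections and left-out libraries.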

Additional observations from a re-analysis of the deposited data

How the results depend on the processing

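Fold changes of the 8 genes in the 4 comparisons were recomputed under 20 settings. Of 640 values, 618 kept their direction and side of the threshold, or moved by less than the replicate spread. That count is no measure of robustness, because several settings cannot move a fold change. The expression filter, the fit without the trend, the replicate block, the separate fit and a library left out of other groups leave it unchanged. COL17A1 with HOTAIR in DCIS.COM was counted as kept also where its call was lost. In MCF10A with HOTAIR, 0 of the 8 genes were called under any setting, and small changes turned sign. Quantile normalization gave COL17A1 -0.0238 and LAMB3 -0.0891, and the GC correction gave LAMB3 -0.0152. With 1 library left out, when the lone library is assumed to vary like the other groups, COL17A1 ranged from -0.0101 to 0.0662, DST from -0.40 to 0.31, PLEC from -0.0924 to 0.37, LAMA3 from -0.22 to 0.13, and LAMB3 from -0.0663 to 0.12. In DCIS.COM, ITGB4 (-0.15 to 0.19), LAMA3 (-0.03 to 0.13) and CD151 (-0.094 to 0.007) turned sign with 1 library left out, and the other 5 genes kept theirs.

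Of all genes, 3 (all higher) were called with HOTAIR in MCF10A, against 6 with a pseudocount of 1 CPM, 1 in a separate fit, 1 at a log2 fold change of at least 1.5, 5 by limma-voom, 5 after length correction, 19 (14 higher, 5 lower) after GC correction and 1 to 51 with 1 library left out. In DCIS.COM 12 (all higher) were called, against 6 without the trend, 20 with the replicate block, 0 in a separate fit, 1 at the log2 minimum of 1.5, 47 (42 higher, 5 lower) after GC correction and 1 to 1403 with 1 library left out. The highest count in DCIS.COM came without DCIS.COM pCDH-empty 2. The highest in MCF10A came without either DCIS.COM empty vector library, neither of which is part of that comparison. All groups shared the estimate of the spread, so the adjusted p-values in MCF10A also depend on the DCIS.COM libraries. COL17A1 was no longer called in the separate fit, at the log2 minimum of 1.5 and without either DCIS.COM HOTAIR library (0 of 8 in each), although its log2 change stayed at 0.94 in the separate fit and was 0.92 and 0.96 without either library. The cause of these shifts was not tested. Between the lines, the log2 minimum of 1.5 left 2418 of 6370 calls with the empty vector and 2357 of 6018 with HOTAIR. The replicate block gave 2, 20, 6378 and 6031 calls in the 4 comparisons and the same counts for the 8 genes. Equal numbers did not deviate together (correlations -0.01 to 0.04), so no pairing was assumed.

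The length correction and the length of all exons were added after seeing the data, since the deposited table holds no lengths. With all exons, DST to PLEC moved from -1.86 to -2.62 in DCIS.COM on the log2 scale, and the other ratios kept their sign. CD151 changed places with its neighbours in length-scaled level. With the empty vector the means of LAMA3 and ITGA6 in MCF10A, and of ITGA6 and ITGB4 in DCIS.COM, also changed order. By Pearson correlation, 0 of the 5 genes nearest to COL17A1 were the same.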
